A study of Mus musculus with 9 samples.

Results

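The genes described here are 10 components of Toll-like receptor (TLR) and MyD88 signalling in cultured mouse chondrocytes, the cells that build and maintain cartilage. They are the receptors Tlr2, Tlr3 and Tlr4, the co-receptors Cd14 and Ly96, the adaptors Myd88 and Ticam1, and Irak2, Irak3 and Irak4 of the interleukin-1 receptor-associated kinase family. They were taken by gene symbol from a table of 56748 genes, each symbol matched 1 row, and all 10 had enough counts to be tested. The cells came from knee joints of wild-type (WT) mice and were grown in serum-containing DMEM after a collagenase digest. Each of 3 groups has 3 RNA sequencing libraries: untreated control cells, cells given interleukin-1β (IL-1β), and cells given IL-1β with recombinant SFRP5, a secreted relative of the Frizzled receptors that can capture Wnt proteins. The labels state no dose, treatment time or age of the mice. No group had SFRP5 without IL-1β, so what SFRP5 does in unstimulated cells cannot be told apart from what it does to the IL-1β response. The labels also do not say which libraries came from separate animals or cultures, so each p-value reflects spread among these libraries, some of which may be technical.

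Toll-like receptors sense molecules of microbes and fragments released from damaged tissue, including cartilage matrix. Most of them, and the IL-1 receptor as well, pass the signal to the adaptor MYD88, which gathers the kinase IRAK4 and then IRAK1 and IRAK2 into a complex that activates TRAF6 and NF-κB. TLR3 instead uses the adaptor TICAM1, also called TRIF, which leads towards interferon genes, and TLR4 can use either adaptor. The 10 genes therefore include parts that TLRs share with the receptor for the cytokine added to these cultures.

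The libraries held between 15795985 and 20688963 counts each. Levels are given as CPM, the part of each 1000000 counts of a library that fell on the gene after correction with TMM scaling factors, and on this scale 3 counts in a library equal 0.135 to 0.195 CPM. All 12 chondrocyte markers examined were tested, and together they reached 115200 to 117800 CPM in control libraries. The same sum was 25410 to 26680 CPM after IL-1β and 30850 to 32300 CPM when SFRP5 was present too. Col2a1 was the largest part of each sum, at 74500, 15410 and 20770 CPM on average. All 12 markers fell with IL-1β, where 40.4% of all tested genes fell. With SFRP5 against IL-1β alone 6 rose, 1 (Col11a2) fell and 5 were not called, where 15.6% of all tested genes rose and 15.7% fell. Synovial fibroblast markers summed to 190.5 to 193.2, 864.2 to 920.8 and 1121 to 1154 CPM in the same order of groups. Of the 6 of them tested, 2 rose with IL-1β (Prg4, from 65.4 to 475.4 CPM, and Pdpn, from 34.3 to 383.5 CPM) and 3 fell (Thy1, Pdgfra and Dpp4, by 4.87-fold, 2.6-fold and 1.6-fold). Endothelial markers summed to 0.768 to 1.11 CPM in control, 3.75 to 4.68 CPM after IL-1β and 2.54 to 3.64 CPM after both agents, and the 2 tested, Cdh5 and Tek, rose with IL-1β. Of 8 lymphocyte markers 6 had 0 counts in all libraries. The part of these cell types in the results was not tested. In bulk samples, fewer cells of a type and less RNA per cell cannot be told apart. Changes are log2 fold changes ± standard error (SE) with p-values from edgeR's quasi-likelihood test, adjusted by the Benjamini-Hochberg method over all 15502 genes tested, and a gene is said to have risen or fallen where the adjusted p was under 0.05.

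The promoters of 3 of the genes are shown first, because they hold short motifs for factors that act downstream of these receptors. RefSeq start sites on GRCm38.p6 were used for 7 of the 10 genes in 8 windows. In these, 4 motifs were searched on both strands in the 250 bases before the start. The promoters of Tlr4, Cd14 and Ly96 were not searched. The choice of windows for the 10 genes left out a whole chromosome, which the shares over all windows include. A gene without a window here may therefore still have a RefSeq start site. The NF-κB motif was written as GGGANNTTCC or GGGANNTCCC, the interferon-stimulated response element (ISRE) as GAAANNGAAA, the AP-1 motif as TGANTCA and the STAT motif as TTCNNNGAA. Among all 32851 RefSeq promoter windows of this length, 1.77% held the NF-κB motif, 2.98% the ISRE, 6.75% the AP-1 motif and 7.02% the STAT motif. Capitals mark the NF-κB match in the promoters of Tlr2 and Tlr3 and the ISRE match in that of Myd88, each read 5′ to 3′ on the strand of its gene, which is the minus strand in all 3 cases.
Tlr2, chr3:83841609-83841858: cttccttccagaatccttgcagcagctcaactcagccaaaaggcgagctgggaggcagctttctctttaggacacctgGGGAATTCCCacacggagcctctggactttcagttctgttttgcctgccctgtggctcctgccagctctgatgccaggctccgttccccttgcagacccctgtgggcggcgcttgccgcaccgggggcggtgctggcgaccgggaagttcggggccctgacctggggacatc
Tlr3, chr8:45410381-45410630: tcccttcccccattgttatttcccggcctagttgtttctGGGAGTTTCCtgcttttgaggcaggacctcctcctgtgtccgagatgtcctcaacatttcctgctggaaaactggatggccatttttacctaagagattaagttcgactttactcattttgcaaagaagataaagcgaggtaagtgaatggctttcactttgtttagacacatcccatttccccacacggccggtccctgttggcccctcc
Myd88, chr9:119340019-119340268: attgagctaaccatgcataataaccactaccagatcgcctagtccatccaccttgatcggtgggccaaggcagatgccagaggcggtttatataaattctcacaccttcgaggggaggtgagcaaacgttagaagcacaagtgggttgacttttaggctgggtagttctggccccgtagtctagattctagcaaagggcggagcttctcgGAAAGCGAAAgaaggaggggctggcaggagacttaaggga
The match in Tlr2 lies at -172 to -163 from the start site and reads GGGAATTCCC, and the match in Tlr3 lies at -211 to -202 and reads GGGAGTTTCC. The ISRE letters of Myd88, GAAAGCGAAA, lie at -40 to -31, and a STAT match, TTCTCGGAA, overlaps them at -46 to -38. The windows of Irak2, Irak3, Irak4 and Ticam1 held none of these letters. A match is a description of the sequence and shows no binding.

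IL-1β was associated with higher transcript levels of most of these genes. Irak3, an inhibitor of the pathway, rose 13.6-fold, the co-receptor Cd14 21.8-fold and the receptor Tlr2 5.13-fold, whereas the shared adaptor Myd88 and the double-stranded RNA receptor Tlr3 fell. Of the 10 genes 8 rose and 2 fell, where 38.5% of all tested genes rose and 40.4% fell. The 3 IL-1β libraries did not overlap the 3 control libraries for any of the 10 genes, and the same held for 80% of all tested genes. The median log2 change of the 10 was 1.29, beside -0.03 over all tested genes. The size of the changes differed widely among them, from 0.32 for Irak4 to 4.45 for Cd14 on the log2 scale among those that rose.

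**Figure D1:**
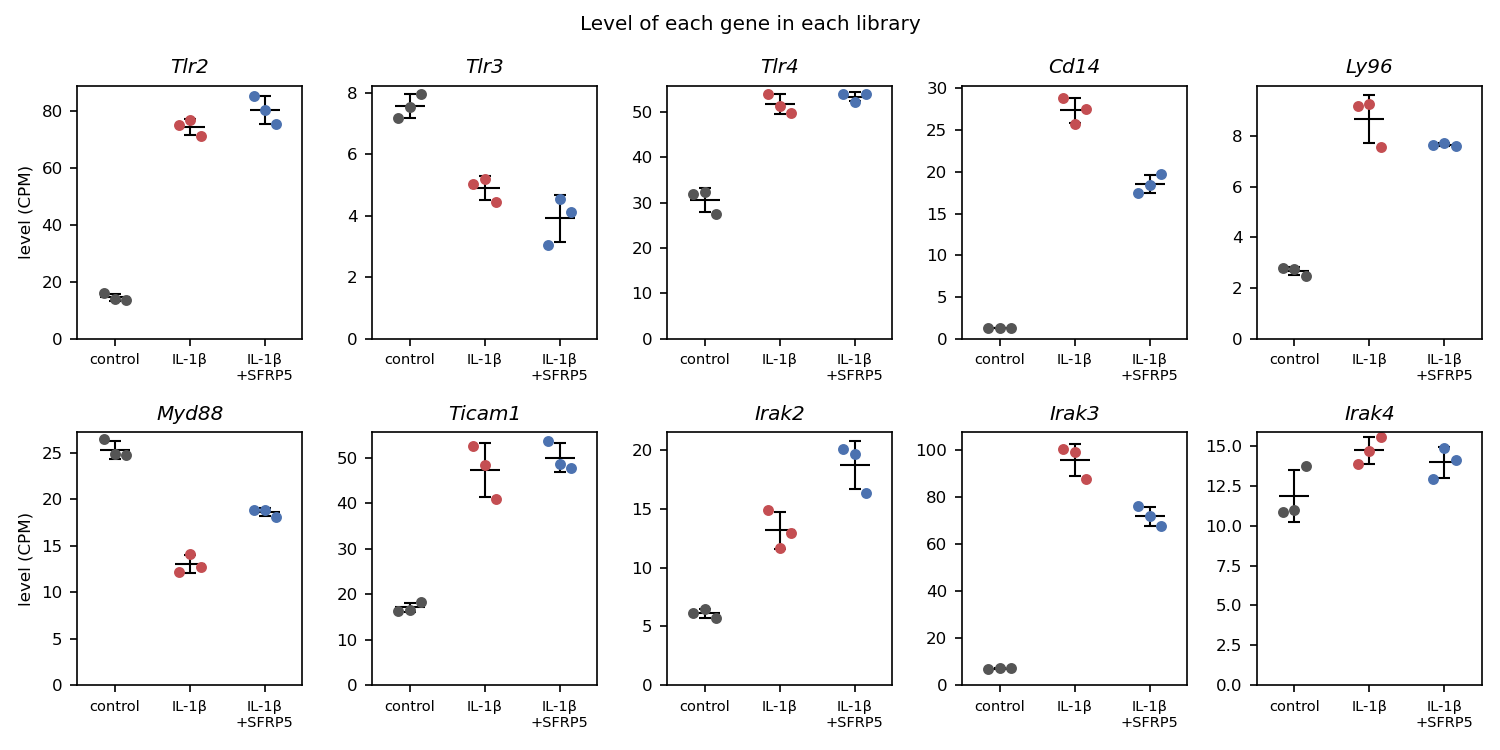
Level in CPM (vertical axes, linear and starting at 0) of each of the 10 genes in the 9 libraries, with 1 point per library, grey for control, red for IL-1β and blue for IL-1β with SFRP5; the bars give the mean ± SD of 3 libraries. Myd88 lies at 24.7 to 26.5 CPM in control, 12.2 to 14.1 CPM with IL-1β and 18.1 to 18.9 CPM with SFRP5 added, so that its 3 groups are separate.

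Tlr2, which recognises bacterial lipoproteins together with TLR1 or TLR6, was at 15.86, 13.95 and 13.56 CPM in the control libraries and at 74.9, 76.7 and 71.1 CPM with IL-1β. With SFRP5 added it was at 85.1, 80.3 and 75.5 CPM, a range that overlaps that of IL-1β alone. Tlr2 rose with IL-1β by 2.36 ± 0.07 on the log2 scale (adjusted p = 3.92e-21). Its difference between IL-1β with SFRP5 and IL-1β alone was 0.12 ± 0.06, with a 95% interval of 0.00 to 0.23, and missed the threshold in edgeR's test (adjusted p = 0.117). Without the third SFRP5 library that difference was 0.16 and passed the threshold (adjusted p = 0.0462).

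Tlr4, the receptor for bacterial lipopolysaccharide, was at 31.9, 32.3 and 27.6 CPM in control. It reached 54.1, 51.2 and 49.8 CPM with IL-1β, a 1.69-fold rise (log2 0.76 ± 0.06, adjusted p = 3.2e-11), and 54.0, 52.2 and 53.9 CPM with SFRP5 added. The last 2 groups overlap, and their log2 difference of 0.05 had a 95% interval of -0.08 to 0.17 (adjusted p = 0.6). A long noncoding RNA, ENSMUSG00000121059, overlaps Tlr4 on the same strand with 1010 counts over the 9 libraries. It also rose with IL-1β, by 0.54 on the log2 scale (adjusted p = 0.00147), and how reads were divided between them was not tested.

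Tlr3, which senses double-stranded RNA in endosomes, went the other way. It was at 7.17, 7.54 and 7.97 CPM in control, 5.04, 5.21 and 4.44 CPM after IL-1β, and 3.06, 4.55 and 4.13 CPM with IL-1β and SFRP5. All treated libraries lie below all control libraries, and the fall with IL-1β was 1.55-fold (log2 -0.63 ± 0.16, adjusted p = 0.000801). The libraries with SFRP5 overlap those with IL-1β alone, with a log2 difference of -0.34 ± 0.17 and a 95% interval of -0.70 to 0.02 (adjusted p = 0.15). Tlr2 and Tlr3, whose promoters both hold an NF-κB match, changed in opposite directions with IL-1β. Any part of these matches in the changes was not tested.

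Cd14 encodes a protein that binds lipopolysaccharide and hands it to TLR4. It had 25, 28 and 24 counts in the control libraries, or 1.26, 1.26 and 1.22 CPM, and 475, 426 and 483 counts with IL-1β, or 28.9, 25.8 and 27.5 CPM. The libraries with SFRP5, at 17.5, 18.5 and 19.7 CPM, all lay below those with IL-1β alone and above control. The rise with IL-1β was 4.45 ± 0.12 on the log2 scale (adjusted p = 4.9e-21), and the fall with SFRP5 was 1.48-fold (log2 -0.56 ± 0.08, adjusted p = 7.98e-06). Cd14 is also a marker of monocytes and macrophages. Of 16 other macrophage markers 5 were tested, of which 3 rose with IL-1β and 1 fell, and their summed level over all 16 was 16.57 to 18.03 CPM in control, 29.8 to 31.1 CPM with IL-1β and 20.6 to 25.4 CPM with SFRP5 added. The pan-leukocyte gene Ptprc had 6, 12 and 6 counts over the libraries of the 3 groups, the macrophage gene Adgre1 had 20 in each group, and Cd163 had 0 in all libraries. Of the 5 tested markers Lyz2 was the highest in control, with means of 7.82, 7.83 and 7.05 CPM in the 3 groups. It was not called in any comparison. Mrc1 had means of 1.62, 11.2 and 5.54 CPM, Cd68 1.46, 6.8 and 6.3 CPM, and Csf1r 1.51, 2.27 and 0.915 CPM. Laptm5, the one that fell with IL-1β, had 3.24, 0.868 and 1.2 CPM. With SFRP5 against IL-1β alone Mrc1 and Csf1r fell and the other 3 were not called. Neutrophil markers summed to 0 to 0.152 CPM in control, 5.89 to 7.46 CPM with IL-1β and 4.93 to 7.22 CPM with SFRP5, of which S100a8 and Camp were the tested ones. With IL-1β Camp averaged 5.2 CPM and S100a8 1.48 CPM. Of the 11 neutrophil markers S100a9, Ly6g, Ngp and Csf3r had 0 counts in all libraries. Of 6 dendritic cell markers none was tested. Their part in the level of Cd14 was not tested.

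Ly96 encodes MD-2, the small protein in the TLR4 complex that holds the lipid part of lipopolysaccharide. The control libraries held 2.78, 2.75 and 2.49 CPM and those with IL-1β 9.17, 9.26 and 7.57 CPM, a 3.23-fold rise (log2 1.69 ± 0.15, adjusted p = 2.37e-10). With SFRP5 its libraries were at 7.64, 7.74 and 7.61 CPM, which overlaps IL-1β alone (log2 difference -0.18, 95% interval -0.46 to 0.10, adjusted p = 0.36). All 3 transcripts of the lipopolysaccharide receptor complex therefore rose with IL-1β, by unequal factors. Scaled to gene length, Cd14 had 0.131 ± 0.01 transcripts per Tlr4 transcript in control, 1.7 ± 0.08 with IL-1β and 1.12 ± 0.07 with SFRP5 added (mean ± SD, n = 3). The same ratio for Ly96 was 0.476 ± 0.01, 0.912 ± 0.08 and 0.782 ± 0.02, and in each case no treated library overlapped control. Ratios, orders and shares scaled in this way rest on the length deposited for each gene. That length may differ from that of the isoforms expressed, which were not examined.

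The adaptors moved in opposite directions. Myd88, at 26.5, 24.8 and 24.7 CPM in control, was at 12.2, 14.1 and 12.7 CPM with IL-1β and at 18.8, 18.9 and 18.1 CPM with IL-1β and SFRP5. The 3 groups do not overlap, and the group with SFRP5 lies between the others. Myd88 fell 1.95-fold with IL-1β (log2 -0.96 ± 0.08, adjusted p = 6.72e-11) and was 1.43-fold higher with SFRP5 than with IL-1β alone (log2 0.52 ± 0.09, adjusted p = 3.77e-05). It stayed 1.36-fold below control in the cells with SFRP5 (adjusted p = 1.36e-05). Acaa1a, a peroxisomal enzyme gene with 11997 counts, overlaps Myd88 on the opposite strand, and whether the counting used strand is not stated, so reads of the overlap cannot be assigned with certainty. Acaa1a fell by 0.32 on the log2 scale with IL-1β (adjusted p = 2.59e-06) and differed by 0.01 between the cells with SFRP5 and IL-1β alone (adjusted p = 0.898). Slc22a14 overlaps Myd88 on the same strand with 127 counts, and it fell with IL-1β from 1.98 to 0.0569 CPM (adjusted p = 9e-08). The part of either gene in the counts of Myd88 was not tested.

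Ticam1 encodes the adaptor that TLR3 requires and TLR4 can use. It was at 16.4, 16.6 and 18.3 CPM in control, 52.7, 48.4 and 40.9 CPM after IL-1β and 53.8, 48.7 and 47.9 CPM with SFRP5 added. The treated groups overlap each other and lie far above control, with a rise of 2.77-fold with IL-1β (log2 1.47 ± 0.08, adjusted p = 1.26e-14). The difference between the treated groups was 0.09 ± 0.07 with a 95% interval of -0.07 to 0.24 (adjusted p = 0.421). Scaled to gene length, there were 0.532 to 0.636 Ticam1 transcripts per Myd88 transcript in control, 2.78 to 3.71 after IL-1β and 2.22 to 2.46 when SFRP5 was added. These ranges do not overlap. An exact two-sided permutation test of 3 against 3 libraries gave p = 0.1 for each pair of groups, the smallest value such a test can give.

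Irak4 encodes the kinase that starts the MYD88 complex, and of the 10 genes it changed least against control in either treated group. It was at 10.9, 11.0 and 13.8 CPM in control, 13.9, 14.7 and 15.6 CPM after IL-1β and 13.0, 14.9 and 14.2 CPM with SFRP5. The third control library, at 13.8 CPM, was the control library nearest to those with IL-1β. The rise of 0.32 ± 0.11 on the log2 scale with IL-1β passed the threshold (adjusted p = 0.00866) but missed it without the second control library (log2 0.26, adjusted p = 0.0523). Irak2, which encodes a relative that sustains signalling from the complex, was at 6.11, 6.46 and 5.74 CPM in control cells and reached 14.9, 11.7 and 13.0 CPM with IL-1β, a 2.16-fold rise (log2 1.11 ± 0.12, adjusted p = 7.34e-09). With SFRP5 it was higher again, at 20.1, 19.7 and 16.4 CPM, above every library of IL-1β alone (log2 0.51 ± 0.11, adjusted p = 0.000594).

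Irak3 encodes IRAK-M, a family member that restrains signalling from the receptor complex. It was at 6.82, 7.13 and 7.11 CPM in control cells and reached 100.4, 99.1 and 87.9 CPM with IL-1β, a rise of 3.77 ± 0.07 on the log2 scale (adjusted p = 1.67e-24). In the cells with SFRP5 it was at 76.0, 71.8 and 67.9 CPM, below all libraries of IL-1β alone and still 10.2-fold above control. The fall against IL-1β alone was 1.33-fold (log2 -0.41 ± 0.06, adjusted p = 1.54e-06). Tmbim4, which overlaps Irak3 on the opposite strand with 10329 counts, was at 41.0, 81.5 and 70.1 CPM on average in the 3 groups, and its part in the counts of Irak3 was not tested. Irak4 in turn is overlapped on the opposite strand by Twf1, which had 11902 counts and fell with IL-1β by 0.45 on the log2 scale (adjusted p = 1.73e-08).

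When SFRP5 was added to IL-1β, 4 of the 10 genes differed from IL-1β alone. Myd88 and Irak2 rose, by 0.52 and 0.51 on the log2 scale, and Cd14 and Irak3 fell by 0.56 and 0.41. So 2 rose and 2 fell, where 15.6% of all tested genes rose and 15.7% fell. The groups did not overlap for these 4 genes and overlapped for the other 6, and 40.8% of all tested genes had groups that did not overlap. The median log2 difference of the 10 genes was -0.02, beside 0.01 over all tested genes. The genes that did not pass, Tlr2, Tlr3, Tlr4, Ly96, Ticam1 and Irak4, had 95% intervals that reach at most 0.70 from 0 on the log2 scale.

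**Figure D2:**
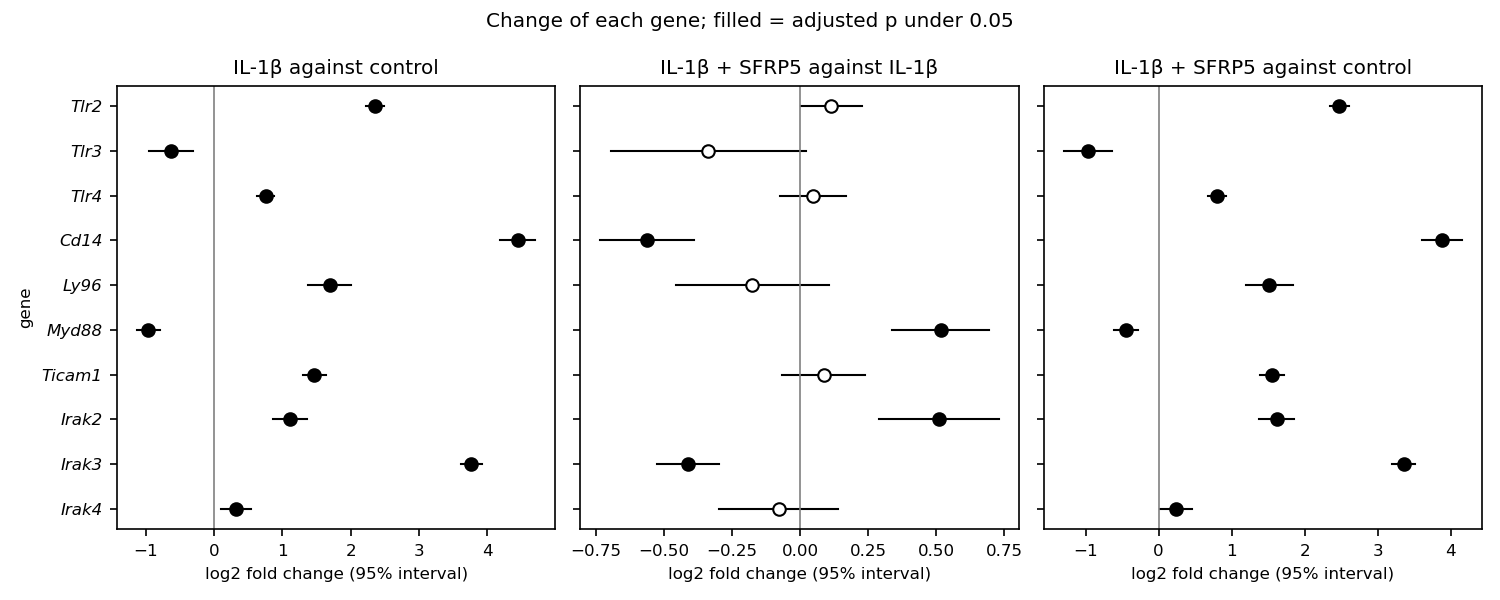
Log2 fold change (horizontal axes, with a scale of its own in each panel) of the 10 genes in the 3 comparisons; lines are 95% intervals, and filled points passed an adjusted p under 0.05. In the middle panel Myd88 and Irak2 lie to the right of 0, Cd14 and Irak3 to the left, and the 6 open points did not pass.

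Against control, the cells with IL-1β and SFRP5 again had 8 of the 10 genes higher and 2 lower, where 37.3% of all tested genes rose and 39% fell. This comparison uses the same control libraries as that of IL-1β alone. Its log2 changes were 2.48 for Tlr2, -0.97 for Tlr3, 0.80 for Tlr4, 3.88 for Cd14, 1.52 for Ly96, -0.45 for Myd88, 1.56 for Ticam1, 1.62 for Irak2, 3.36 for Irak3 and 0.24 for Irak4. The groups did not overlap for 9 of the 10 genes and for 78.2% of all tested genes. Irak4 was the gene whose groups overlapped, and its change was close to the threshold in edgeR's test (adjusted p = 0.0454). It missed the threshold without the first control library (adjusted p = 0.175), the second control library (0.177), the second SFRP5 library (0.101) or the third SFRP5 library (0.0816).

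The order of levels among the 10 genes, compared as CPM per kilobase of gene length, was rearranged by IL-1β. In control cells Myd88 was highest at 9.84 ± 0.38, followed by Ticam1 at 5.71 ± 0.35, Tlr4 at 5.51 ± 0.47 and Tlr2 at 4.80 ± 0.41, and the libraries of Ticam1 and Tlr4 and those of Tlr4 and Tlr2 overlapped. Ly96, Irak4, Irak3, Tlr3, Irak2 and Cd14 followed, from 2.62 down to 0.721, and the libraries of Ly96 and Irak4 and those of Tlr3 and Irak2 overlapped. With IL-1β the highest were Irak3 at 26.1 ± 1.87 and Tlr2 at 24.6 ± 0.96, which overlapped, then Ticam1 and Cd14 at 15.8 each. Myd88 was the seventh of the 10 at 5.05 ± 0.38, and Tlr3 the lowest at 0.94 ± 0.08. With SFRP5 added, Tlr2 at 26.6 ± 1.6 was above Irak3 at 19.6 ± 1.11 in every library, no neighbours in the order overlapped, and Myd88 at 7.22 ± 0.17 lay just below Ly96 at 7.51 ± 0.07.

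Within the Tlr family the same scale shows how the receptors were distributed. Tlr2 made up 34.2 ± 1.06% of all Tlr transcripts in control, 69.5 ± 0.61% with IL-1β and 70.5 ± 1.6% with SFRP5 added (n = 3 each). The share of Tlr4 went from 39.2 ± 2.19% to 26.3 ± 0.84% and 25.5 ± 1.08%, although its level rose, and that of Tlr3 from 10.4 ± 1.17% to 2.65 ± 0.12% and 2.0 ± 0.44%. Tlr5 and Tlr6 together with Tlr1 made up most of the rest in control, with shares of 6.12 ± 0.34%, 7.96 ± 1.43% and 1.38 ± 0.36%, and in the treated groups the most of these was Tlr6, at 0.96 ± 0.37% and 1.2 ± 0.48%. Among the Irak genes, Irak1, the kinase that IRAK4 activates, held 68.6 ± 1.65% of transcripts in control and 37.9 ± 1.58% with IL-1β, although its level rose 1.58-fold, from 58.3 to 91.8 CPM (log2 0.66 ± 0.05, adjusted p = 5.27e-12). The share of Irak3 went from 10.6 ± 0.62% to 50.6 ± 2.15%. With SFRP5 added Irak3 held 43.8 ± 0.73% and Irak2 9.5 ± 0.67%, against 5.8 ± 0.64% for Irak2 with IL-1β alone, and neither overlapped between those groups.

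**Figure D3:**
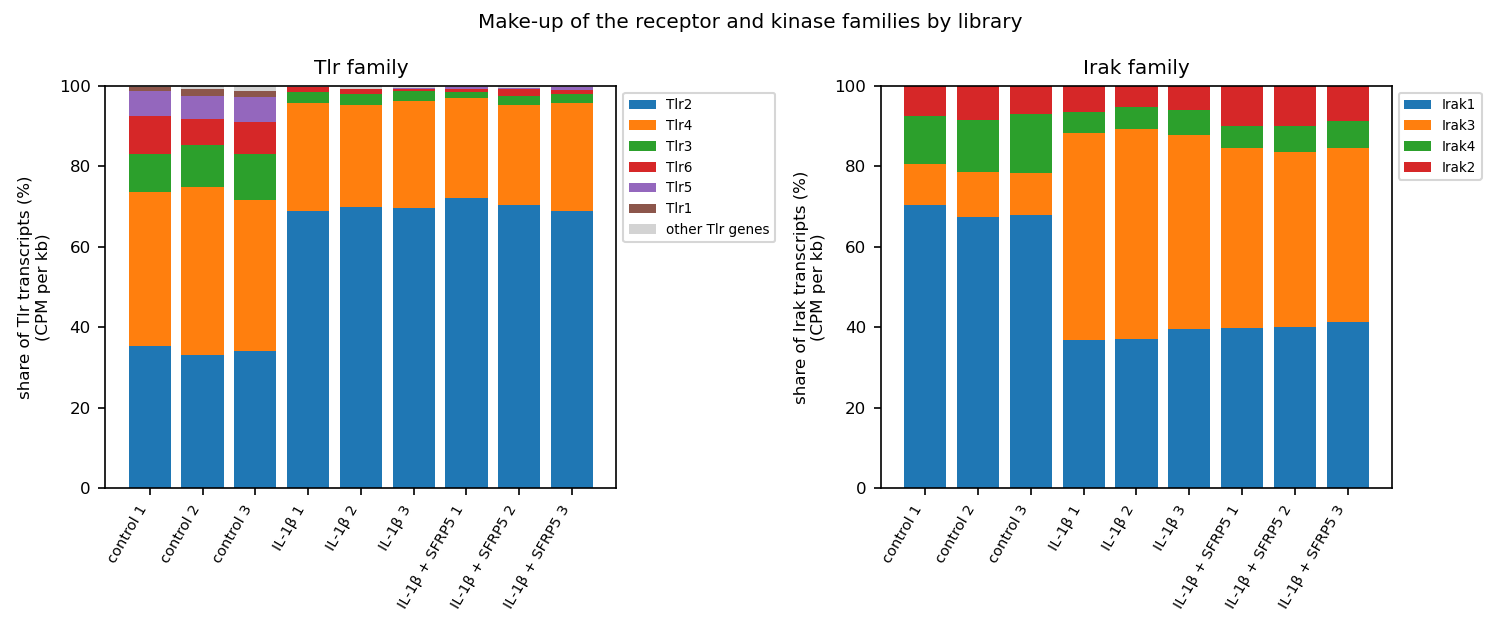
Make-up of the Tlr family (left) and the Irak family (right) in each of the 9 libraries, as the share in % of the family's summed CPM per kilobase; each bar is 1 library and each colour a gene. Tlr2 takes up 33.2 to 35.3% of the left bars in control and 68.9 to 72.2% in the treated libraries, and Irak3 grows from 10.1 to 11.3% of the right bars in control to 43.3 to 52.1%.

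Other genes of the pathway were read from 7 lists with 82 genes in all, of which 64 were tested. With IL-1β 40 of them rose and 18 fell, and their median was 0.62 on the log2 scale, while the SFRP5 group against IL-1β alone had 10 that rose and 23 that fell (median -0.09). Over all tested genes 38.5% rose and 40.4% fell with IL-1β, and 15.6% rose and 15.7% fell with SFRP5 added, and the counts of each list stand beside these shares. Of 14 other receptors 5 were tested. Tlr5, the flagellin receptor, fell 14.7-fold with IL-1β, from 4.46 to 0.293 CPM (adjusted p = 2.08e-10), and Tlr6, a partner of TLR2, fell 3.27-fold (adjusted p = 1.32e-05). Tlr1, the other partner of TLR2, was too low to be tested, with 40 counts over the control libraries and 0 over those with IL-1β, which is at least 10.9-fold lower with 3 counts over the group as the floor. Tlr1 and Tlr6 are similar in sequence, and how their reads were divided is uncertain. Il1r1, the receptor for IL-1β itself, fell 1.91-fold from 60.9 to 31.9 CPM (adjusted p = 4.87e-14), whereas Il1rl1, the receptor for interleukin-33, rose 5.98-fold and Il1rap, the shared co-receptor, rose by 0.29 on the log2 scale. The rise of Il1rap missed the threshold without the third IL-1β library (adjusted p = 0.0574) and with upper-quartile factors in place of TMM (log2 0.14, adjusted p = 0.183). With SFRP5 added, 4 of the 5 were higher than with IL-1β alone and 0 were lower, among them Il1r1 at 48.1 CPM (log2 0.59 ± 0.06, adjusted p = 8.36e-09) and Il1rap (log2 0.54, adjusted p = 4.79e-05). Tlr5 was among them too (log2 1.47, adjusted p = 0.0159), although its groups overlapped, and it missed the threshold without the first (adjusted p = 0.0704) or second (0.0552) IL-1β library or the third SFRP5 library (0.0988).

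Accessory proteins and chaperones for these receptors went in both directions with IL-1β, 3 up and 5 down of 8 tested. Lbp, the serum-type protein that delivers lipopolysaccharide to CD14, rose 121-fold, from 11.0 ± 0.29 to 1330 ± 103 CPM (adjusted p = 6.82e-30), and was at 1014 ± 88 CPM with SFRP5 (log2 -0.39 ± 0.05 against IL-1β alone, adjusted p = 1.23e-06). Rftn1, a lipid raft protein, rose 14.4-fold and also fell with SFRP5 (log2 -0.58, adjusted p = 5.77e-05). Hsp90b1, the chaperone that folds most TLRs, rose 2.06-fold, and the scavenger receptor Cd36 fell 5.43-fold. Lman1, a cargo receptor of the secretory pathway, fell with IL-1β by 0.58 and was lower again with SFRP5, by 0.33 on the log2 scale (log2 -0.33, adjusted p = 2.22e-07). In this list 2 genes rose and 4 fell with SFRP5 against IL-1β alone.

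Among 3 tested adaptors, Ticam2 encodes the bridge between TLR4 and TICAM1. It had 2, 0 and 2 counts in the control libraries, 84, 80 and 91 with IL-1β and 117, 91 and 108 with SFRP5 added, which is 5.04 ± 0.18 and 6.02 ± 0.31 CPM in the treated groups (IL-1β against control, adjusted p = 7.06e-14). Tmed7 overlaps Ticam2 on the same strand with 26585 counts, at 159.2, 166.2 and 158.9 CPM in the 3 groups, and differed by 0.06 on the log2 scale with IL-1β (adjusted p = 0.175). How reads of the overlap were divided was not tested. Sarm1 fell 5.18-fold with IL-1β (adjusted p = 1.4e-06). Tirap, the bridge between TLR2 or TLR4 and MYD88, fell by 0.26 on the log2 scale at the edge of the threshold (adjusted p = 0.0491) and missed it under most other settings, among them DESeq2 (adjusted p = 0.174). None of the 3 passed between the treated groups.

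**Figure D4:**
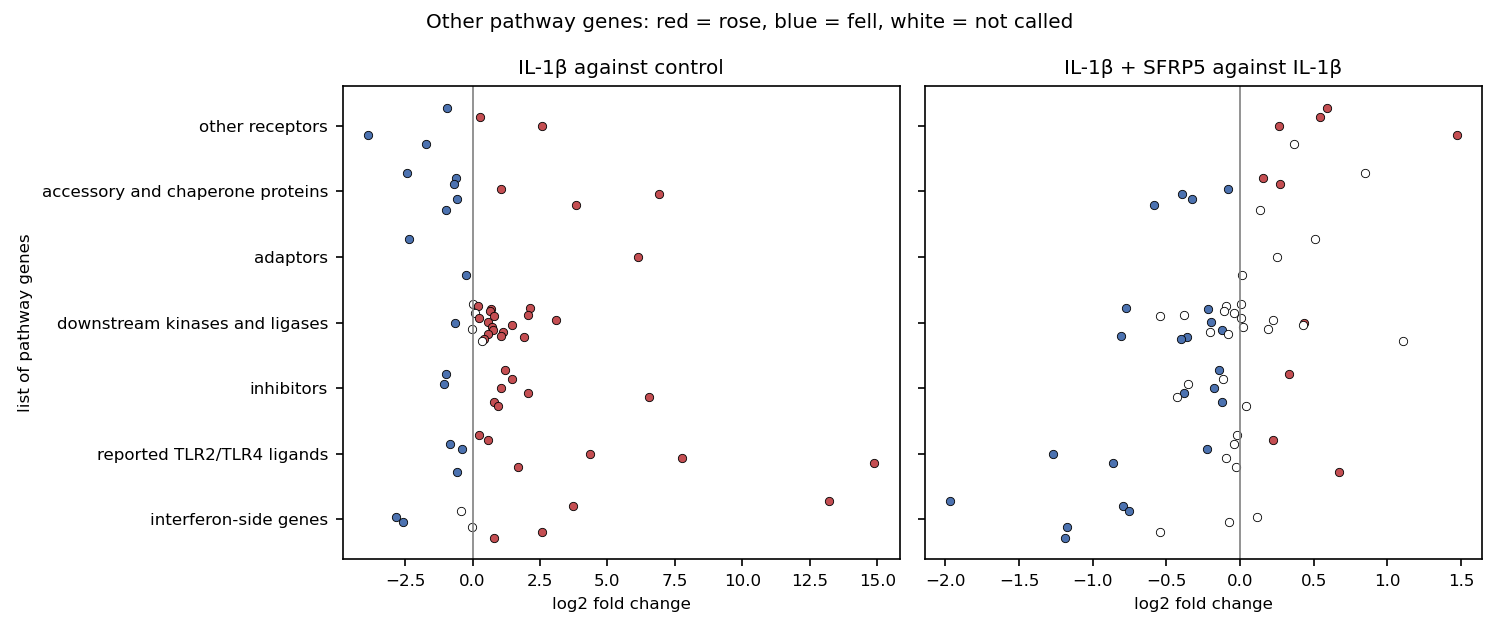
Log2 fold change (horizontal axes, scaled separately) of the tested genes of 7 lists of other pathway genes, for IL-1β against control (left) and both agents against IL-1β (right); each point is 1 gene, red where it rose, blue where it fell and white where it did not pass. In the row of 22 downstream kinases and ligases 17 are red on the left, and 7 are blue and 1 red on the right.

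Downstream of the adaptors, 17 of 22 kinases, ubiquitin ligases and interferon regulatory factors rose with IL-1β and 1 fell (median 0.66 on the log2 scale). Map3k8, the kinase also called TPL2, rose 8.45-fold, Ikbke, an IκB kinase relative that acts on interferon regulatory factors, 4.33-fold, Irf5 4.18-fold and Traf6, the ubiquitin ligase next in line after the IRAKs, 3.77-fold. Peli2 was the member that fell (log2 -0.65, adjusted p = 6.9e-05). With SFRP5 against IL-1β alone 7 fell and 1 rose. Traf3, a ligase on the TICAM1 side, fell from 111.7 to 63.7 CPM (log2 -0.81 ± 0.05, adjusted p = 6.83e-13) and Ikbke from 46.4 to 27.1 CPM (log2 -0.77 ± 0.07, adjusted p = 2.14e-09). Peli2 rose (log2 0.44, adjusted p = 0.0149), a call lost without the third IL-1β library (adjusted p = 0.0524) or the first SFRP5 library (0.0936).

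Of 9 tested inhibitors of receptor signalling 7 rose with IL-1β and 2 fell, with a median of 1.05. Tnip3, a partner of A20, averaged 0.077 CPM in control cells and 8.17 CPM after IL-1β, Tnip1 rose 4.12-fold, and the deubiquitinases Otud4 and Cyld rose 2.76-fold and 2.32-fold. Socs1 and Dok1 fell, by 1.07 and 0.97 on the log2 scale. With SFRP5 added 4 were lower than with IL-1β alone, led by Tnip1 (log2 -0.38 ± 0.06, adjusted p = 1.17e-05), and Dok1 was higher (log2 0.34, adjusted p = 0.0182). Cyld (log2 -0.14, adjusted p = 0.0387) and Tollip (log2 -0.12, adjusted p = 0.0449), among the 4, were close to the threshold. Their calls were not followed under other settings. Dok1 missed the threshold without the third IL-1β library (adjusted p = 0.109) or the second SFRP5 library (0.0739), and with DESeq2 (0.0506). Tank, among the 4, was lower by a log2 difference of -0.18 (adjusted p = 0.0311) and missed it without the first (0.111) or second (0.146) IL-1β library or without the second (0.0734) or the third (0.0861) SFRP5 library, and with DESeq2 (0.065).

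Of 9 tested proteins reported elsewhere as endogenous TLR2 or TLR4 ligands 6 rose with IL-1β and 3 fell. Saa3, a serum amyloid, averaged 0.434 CPM in control cells and 13040 CPM after IL-1β, Prdx1, a peroxidase, rose 20.3-fold and Tnc, the matrix protein tenascin-C, 3.2-fold to 799.9 CPM. S100a8 had 0 counts in control and 75 with IL-1β, at least 30.5-fold higher, while its partner S100a9 had 0 in all libraries. Hmgb1, Vcan and Hspd1 fell. Hmgb1 and Prdx1 have processed pseudogenes close to them in sequence, and how reads were divided is uncertain. With SFRP5 added Prdx1 was lower at 1598 against 3851 CPM (log2 -1.27 ± 0.04, adjusted p = 8.9e-18) and Saa3 lower by 0.87 on the log2 scale (log2 -0.87, adjusted p = 3.16e-13), whereas Vcan, the proteoglycan versican, was higher at 80.6 against 50.6 CPM (log2 0.67, adjusted p = 2.33e-09).

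On the interferon side, where TICAM1 leads, 8 of 12 genes were tested and Ifnb1, which encodes interferon-β, had 0 counts in every library. With IL-1β 4 rose and 2 fell. The chemokines Ccl5 and Cxcl10 rose, to 1290 and 4.12 CPM, whereas Ifit2 fell from 19.1 to 2.66 CPM (log2 -2.85 ± 0.14, adjusted p = 5.35e-16) and Ifit3 from 7.45 to 1.23 CPM (log2 -2.60 ± 0.21, adjusted p = 3.03e-11). Ifit3 has a near-identical neighbouring copy, which makes its count uncertain. With SFRP5 against IL-1β alone 5 fell and 0 rose, with a median log2 difference of -0.78. Ccl5 fell 3.91-fold to 329.8 CPM (adjusted p = 1.23e-17). Usp18 and Isg15, an interferon-induced protease and the ubiquitin-like protein it removes, were at low levels. Usp18 fell 2.28-fold, from 2.19 to 0.974 CPM (adjusted p = 0.0048), and Isg15 2.26-fold, from 2.06 to 0.894 CPM (adjusted p = 0.00672). Isg15 was at 2.08 CPM in control and was not called with IL-1β (log2 -0.009, adjusted p = 0.978).

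Genes with the most similar pattern to Tlr2, Tlr4 and Irak3 were found by the root mean square difference of log2 CPM, centred on each gene's own mean, over the 9 libraries and 15313 genes. Closest to Tlr2 were Rap2a (0.0563), Pgbd1 (0.0744) and Litaf (0.0782), which was named for its induction by lipopolysaccharide and had means of 25.7, 134.8 and 137.2 CPM in the 3 groups. Closest to Tlr4 were Tsc1 (0.0472), Srek1 (0.048) and Nsrp1 (0.0507). Closest to Irak3 were the transcription factor Atf3 (0.0599), at 29.1, 414.6 and 305.7 CPM, the decoy-type receptor Tnfrsf23 (0.0704) and Pla2g4a (0.0905), the phospholipase that frees arachidonic acid. The 9 libraries fall into 3 groups, so the points of each pattern share their group means, and the likeness is a description.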

How the data were processed

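RNA sequencing libraries from 9 samples were deposited as 1 table of whole-number counts per gene, which the authors made from trimmed reads with fastp, STAR and RSEM on mm10, per the labels' protocols. Versions, strand setting and rounding are not given in the sources used here, and the gene positions in the table do not match RefSeq's on GRCm38.p6, so none of them is printed. Columns were matched to samples by letter and final digit of their names. Gene lengths are those deposited in the table. The counts were tested with edgeR 4.0.16 (R 4.3.3) on all 9 libraries in 1 fit with TMM factors (0.919 to 1.10) and filterByExpr, which kept 15502 genes. Simulated data with known changes were used to test this step. In them few genes changed, with rises and falls balanced, whereas most tested genes changed with IL-1β here. They therefore do not test the scaling under so many changes. Alternatives were RLE and upper-quartile factors, DESeq2 1.42.0, a robust fit, other filters, only the libraries compared, a replicate block and leaving out each library. SE is the change divided by the root of its F statistic. All 10 members are named. From each pathway list the named genes are the up to 4 largest changes with IL-1β, the up to 3 largest with SFRP5 and those against the majority; Tlr1, Irak1, Ifnb1, S100a9 and overlapping genes were added after their values were seen. The genes and lists were chosen with earlier results of these data known. Intervals and floors cover counting error or library spread only, since amplified reads are not independent molecules.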

Additional observations from a re-analysis of the deposited data

How the results depend on the processing

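Across the 17 alternatives the number of the 10 genes that passed was 9 to 10 for IL-1β against control, 4 to 5 for SFRP5 added and 9 to 10 for both agents against control. Of 510 comparisons of a gene's change under an alternative with its main value, 499 kept direction and side of the threshold, 9 lost the call, all of them for Irak4, 1 gained it and 1 changed sign. The alternatives reuse the same counts, and some leave out a library of neither group compared, so much of this sameness is built in. The sign change was Ticam1, which was not called between the treated groups and was at -0.009 on the log2 scale without IL-1β replicate 3. Upper-quartile factors moved the median of all tested genes by -0.15 with IL-1β and -0.13 with both agents on the log2 scale. Under them Irak4 was at 0.17 (adjusted p = 0.142) and 0.10 (adjusted p = 0.375). With these factors 5186 of all genes rose and 7150 fell with IL-1β, against 5969 and 6258. Irak4 against control in the cells with both agents was also lost with DESeq2 (adjusted p = 0.0993) and a filter of at least 1 CPM in 3 libraries (adjusted p = 0.0508). Same-numbered libraries of different groups gave correlations of -0.036 to 0.04 over genes in their deviations from group means, and differently numbered ones -0.039 to 0.055. Such deviations include counting error, so they cannot show whether same-numbered libraries shared an animal or culture. With the replicate block 10, 4 and 10 of the genes passed. At 24 to 28 counts a library, control Cd14 had the fewest counts of the 10.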
